A study of Homo sapiens with 6 samples.

Results

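The 35 genes described here encode the enzymes and transporters of glycolysis, the kinases and the enzyme subunit at the entry of pyruvate into mitochondria, and the transcription factor subunits, regulators and target genes of the response to low oxygen. They were chosen by name for their role in these pathways, with no limit on measured values, and all 35 were found among the 35554 genes of the deposited count table. Their transcripts were measured by RNA sequencing of polyadenylated RNA in LNCaP, an established androgen-dependent line from a human prostate cancer metastasis, and in LNCaP-enzaR, a derivative resistant to the antiandrogen enzalutamide. Each line was represented by 3 libraries, labelled as biological replicates and grown in separate flasks to about 70% confluence. Per the study's methods, LNCaP-enzaR was obtained by keeping parental cells continuously in enzalutamide and was afterwards held in a lower concentration. The parental cells carry no label of treatment, and the labels do not state the presence of drug when the resistant cells were harvested. LNCaP-enzaR is a single selected culture, so the p-values describe these 2 cultures and the spread between their flasks.

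Glycolysis splits glucose into pyruvate in a chain of enzymatic steps, several of which are shared out between isozymes encoded by different genes. Lactate dehydrogenase converts pyruvate to lactate, whereas the pyruvate dehydrogenase complex, which is inhibited by pyruvate dehydrogenase kinases, feeds it to the tricarboxylic acid cycle. Many genes of this chain are targets of hypoxia-inducible factor (HIF), a pair of an oxygen-regulated alpha subunit and a stable partner. In normal oxygen, prolyl hydroxylases mark the alpha subunit for destruction through the VHL protein, so that much of its control lies at the protein level, which was not measured here. Normal prostate epithelium is known for a metabolism that exports citrate.

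Libraries held 77759122 to 98616465 counts, and the 35 genes took up 1.36% to 1.41% of the counts in LNCaP and 0.964% to 1.06% in LNCaP-enzaR. Transcripts of the mitochondrial genome made up 6.72% to 7.06% of counts in LNCaP and 14.7% to 15.5% in LNCaP-enzaR. Of 12 proliferation genes, 11 were lower in LNCaP-enzaR past the threshold defined below, with a sum of 2091 to 2151 CPM against 689 to 746 CPM, where CPM stands for counts scaled to 1e6 per TMM-scaled library. All 9 luminal prostate markers were detected in both lines, at a sum of 4169 to 4250 CPM in LNCaP and 2960 to 3254 CPM in LNCaP-enzaR, with 5 lower and KRT8 higher. The 5 leukocyte markers summed to at most 0.216 CPM in any library, the 4 basal markers to at most 1.71 CPM with KRT5 and TP63 at 0 to 2 counts, the 5 fibroblast markers to 14.7 to 17.9 against 8.21 to 8.95 CPM (COL1A1 lower, LUM and PDGFRB higher), the 4 endothelial markers to 5.57 to 6.10 against 3.94 to 4.35 CPM and the 4 neuroendocrine markers to 1.96 to 2.31 against 2.88 to 3.23 CPM. LNCaP-enzaR replicate 1 stood apart from the other 2 flasks of its line. The chi-square of its counts against them was 39.6 and 31.6 per degree of freedom, whereas the other pairs within a line gave 5.80 to 9.66. The part that growth rate or luminal identity had in the differences below was not tested. For mitochondrial share and this library, only refits without the mitochondrial genes or without the library were made. In bulk RNA, fewer cells with a transcript and less of the transcript per cell cannot be told apart.

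More members were lower than higher in LNCaP-enzaR, but among the HIF subunits, their regulators and the HIF targets calls went both ways. A gene was counted as past the threshold at a Benjamini-Hochberg adjusted p of at most 0.05 over all tested genes (edgeR quasi-likelihood F-test) and a fold change of at least 1.5. Of 34 members tested, 12 fell and 3 rose, which is 35.3% and 8.82%, while among all 19711 tested genes 19.5% fell and 23.3% rose. In total, 44.1% of the members and 42.7% of all tested genes were past the threshold, so these shares lay close together. The median log2 fold change was −0.35 over the members and 0.01 over all tested genes, and it was negative for 23 of 34 members against 49.5% of all genes. In 26 of 34 members (76.5%) the 3 libraries of one line did not overlap with those of the other, of which 20 were lower and 6 higher in LNCaP-enzaR, against 70.6% of all tested genes. A further 12 members differed at an adjusted p of at most 0.05 but by less than 1.5-fold, and 7 did not pass the p limit. Under upper-quartile scaling, where the median shift over all genes was 0.10 in log2 units, 8 of 34 members fell and 3 rose. Among all calls, the share of higher ones was then 60.9%, against 54.5% in the main fit.

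**Figure D1:**
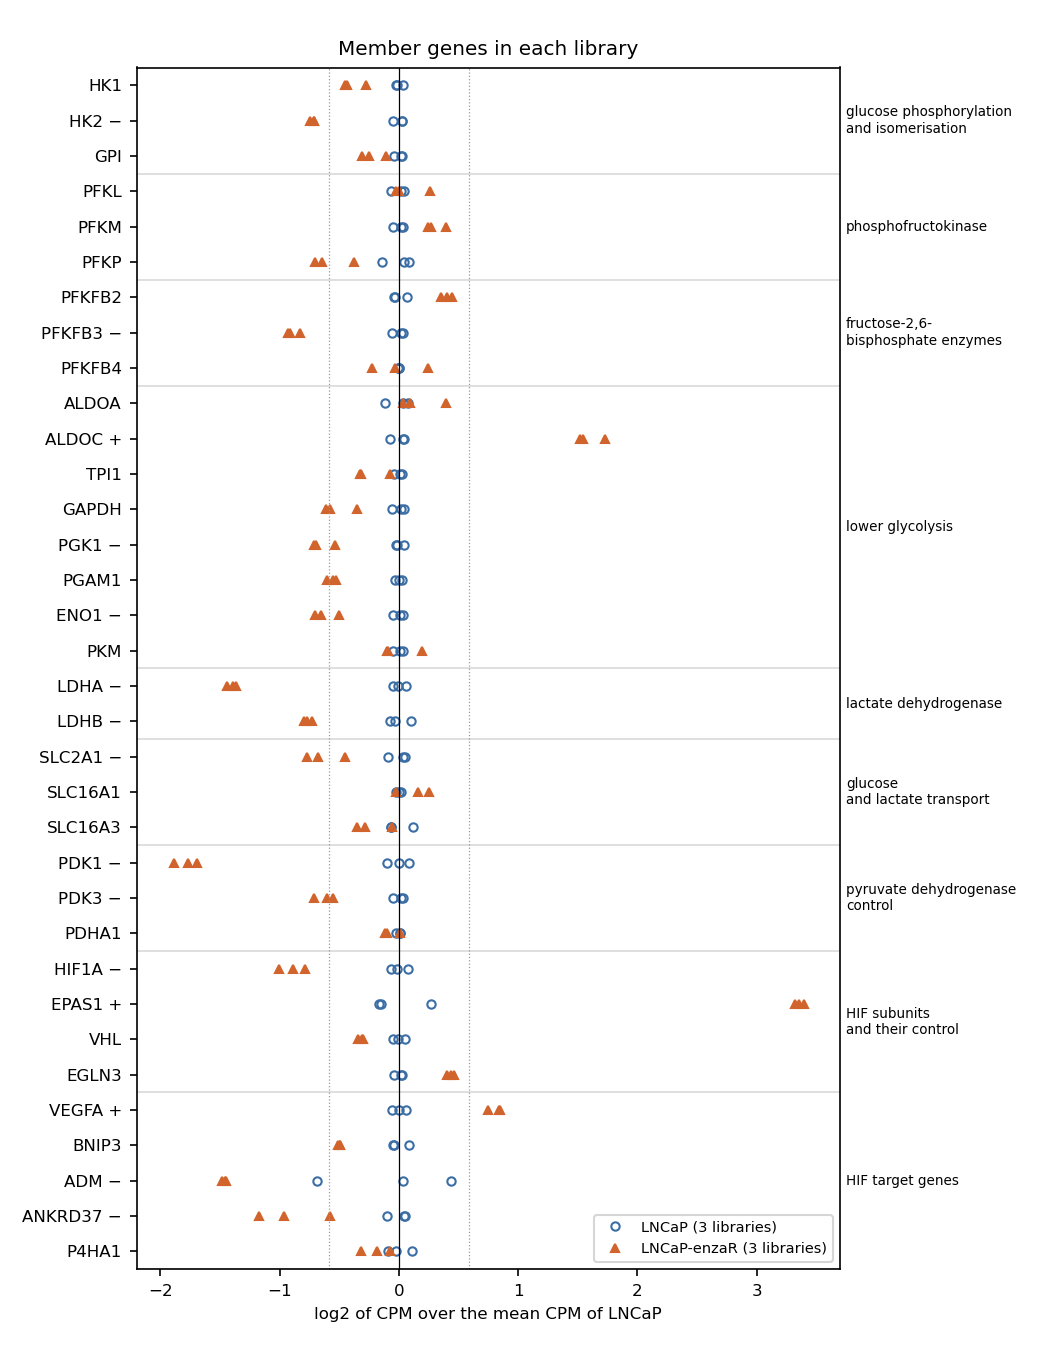
Expression of the 34 tested members in each library, as log2 of CPM over the LNCaP mean of the same gene (horizontal axis), grouped by role; open circles are the 3 LNCaP and triangles the 3 LNCaP-enzaR libraries, dotted lines mark 1.5-fold, and + or − after a symbol marks a gene past the threshold. PDK1 (−1.78), ADM (−1.45) and LDHA (−1.40) lay farthest to the left and EPAS1 (3.36) and ALDOC (1.60) farthest to the right.

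At the first step, glucose is phosphorylated by hexokinases. HK2 (ENSG00000159399.10, chromosome 2, 74834127 to 74893359, GRCh38), the inducible hexokinase of many tumors, was at 88.5, 88.5 and 84.4 CPM in LNCaP and at 53.1, 52.1 and 53.3 CPM in LNCaP-enzaR. The groups lay well apart, and HK2 fell by 0.72 on the log2 scale (SE 0.056, edgeR adjusted p = 3.6e-08). HK1, the housekeeping hexokinase, went from 179.9 ± 4.20 to 138 ± 9.51 CPM (mean ± SD of 3 libraries, as throughout), which was −0.39 on the log2 scale and short of 1.5-fold. Per kilobase of exon, HK1 held 64.0% ± 1.16 of the transcripts of both hexokinases in LNCaP and 69.1% ± 1.39 in LNCaP-enzaR. GPI, which isomerizes glucose-6-phosphate, was likewise short of the fold limit, at 751 ± 18.2 and 646 ± 47.4 CPM (log2 fold change −0.22). Leaving out any 1 library changed none of these 3 calls.

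Phosphofructokinase commits the sugar to glycolysis and is built from liver (PFKL), muscle (PFKM) and platelet (PFKP) type subunits. None of the 3 genes passed the threshold, but they moved apart from each other. PFKL was at 193 ± 7.41 and 205 ± 23.0 CPM (log2 fold change 0.09, adjusted p = 0.313), with only LNCaP-enzaR replicate 1 above the LNCaP range. PFKM was at 153 ± 4.46 and 189 ± 10.7 CPM (0.31, adjusted p = 0.00028), and PFKP at 148 ± 12.2 and 99.9 ± 12.4 CPM (−0.57, adjusted p = 3.29e-05). Each was short of 1.5-fold, PFKP by the least, and PFKP passed the limit with library totals (−0.60), without LNCaP replicate 1 (−0.64) and without LNCaP-enzaR replicate 1 (−0.66). In LNCaP the subunits were nearly even per length, with 35.02% ± 0.547 for PFKL, 34.2% ± 0.690 for PFKM and 30.8% ± 1.10 for PFKP. In LNCaP-enzaR the shares were 37.0% ± 0.768, 42.3% ± 1.39 and 20.7% ± 0.667. No share of one line overlapped with that of the other, which is the smallest p that 3 against 3 libraries allow (two-sided exact permutation test, p = 0.10, adjusted p = 0.109 over 12 shares).

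The PFKFB enzymes make and degrade fructose-2,6-bisphosphate, the strongest activator of phosphofructokinase. PFKFB3 (ENSG00000170525.21, chromosome 10, 6144934 to 6254644), the isozyme with the highest kinase over phosphatase activity, was at 60.8, 64.6 and 64.1 CPM in LNCaP and at 35.5, 33.1 and 33.5 CPM in LNCaP-enzaR. It fell by 0.89 on the log2 scale (SE 0.061, edgeR adjusted p = 1.02e-08), and no library of either line came near the other group. PFKFB2, the heart type, was at 42.3 ± 1.88 and 55.9 ± 1.79 CPM, a log2 fold change of 0.40 that was short of 1.5-fold although all 3 LNCaP-enzaR libraries were above all 3 of LNCaP. PFKFB4, a further HIF target, was at 14.0 ± 0.0586 and 14.1 ± 2.32 CPM (0.01, adjusted p = 0.962), and its sign differed between alternatives. PFKFB3 made up 61.6% ± 0.761 of the 3 genes' transcripts per length in LNCaP and 41.7% ± 0.288 in LNCaP-enzaR, whereas PFKFB2 made up 24.8% ± 0.734 and 41.1% ± 2.54 (exact permutation p = 0.10, adjusted p = 0.109 for both). PFKFB1, the remaining isozyme, stayed under 1 CPM in every library.

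Of the 8 members at the steps that follow, from aldolase to pyruvate kinase, 7 had a log2 fold change between −0.65 and 0.18. PGK1 (ENSG00000102144.15, chromosome X, 77910739 to 78129295), which makes the first ATP of the pathway, was at 902, 942 and 898 CPM in LNCaP and at 629, 564 and 557 CPM in LNCaP-enzaR. It fell by 0.65 on the log2 scale (SE 0.058, edgeR adjusted p = 1.7e-07). ENO1 (ENSG00000074800.16, chromosome 1, 8861000 to 8879190), the enolase of most tissues, was at 2360.3, 2492 and 2458 CPM in LNCaP and at 1724, 1493 and 1552 CPM in LNCaP-enzaR. It fell by 0.62 (SE 0.059, adjusted p = 3.93e-07). The groups were separate for both genes, with LNCaP-enzaR replicate 1 highest in its group, but both lie near the fold limit. With upper-quartile scaling PGK1 (−0.55) and ENO1 (−0.52) were short of it, as was ENO1 without LNCaP-enzaR replicate 2 (−0.57).

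GAPDH, the step that yields NADH, and PGAM1, which moves the phosphate of phosphoglycerate, were also lower in all 3 LNCaP-enzaR libraries without reaching 1.5-fold. GAPDH was at 2504 ± 85.7 CPM in LNCaP and 1762 ± 176 CPM in LNCaP-enzaR (log2 fold change −0.51, adjusted p = 9.92e-06). PGAM1 was at 528 ± 10.5 and 358 ± 9.57 CPM (−0.56, adjusted p = 1.83e-07), and it passed the limit with library totals (−0.595). TPI1, which interconverts the triose phosphates, was at 949 ± 23.7 and 806 ± 82.1 CPM (−0.24). GAPDH is widely used as a reference gene, and its level here differed between the lines by 1.42-fold, with 17.6% of its exonic bases in exons of another gene. PKM, which encodes both splice forms of the pyruvate kinase of proliferating and muscle cells, was at 1617, 1679 and 1711 CPM in LNCaP and at 1911, 1568 and 1563 CPM in LNCaP-enzaR. Its groups overlapped (log2 fold change 0.01, SE 0.072, adjusted p = 0.911), its sign differed between alternatives, and gene counts cannot tell its splice forms apart.

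Aldolase showed the opposite direction. ALDOC (ENSG00000109107.14, chromosome 17, 28573115 to 28576948), the brain-type aldolase, was at 74.0, 80.2 and 79.8 CPM in LNCaP and at 259, 224 and 227 CPM in LNCaP-enzaR. It rose 3.03-fold, with every LNCaP-enzaR library far above every LNCaP library (log2 fold change 1.60, SE 0.067, edgeR adjusted p = 4.85e-11), and was the only enzyme of the chain among the members to rise past the threshold. Relative to the next enzyme within each library, there were 8.22 ± 0.184 ALDOC counts per 100 TPI1 counts in LNCaP and 29.4 ± 0.560 in LNCaP-enzaR, a ratio chosen after its values were seen. ALDOA, the muscle and general aldolase, was counted at 39.8 ± 2.74 and 45.2 ± 6.25 CPM (log2 fold change 0.18, adjusted p = 0.0854). Of its exonic bases, 54.2% lie in exons of other annotated genes, so its level and the fall of its share of both aldolases from 25.8% ± 0.551 to 11.5% ± 0.551 cannot be read as those of the whole gene.

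Lactate dehydrogenase was the step with the largest decrease. LDHA (ENSG00000134333.14, chromosome 11, 18394560 to 18408425), the subunit that favors lactate formation, was at 1689.6, 1826 and 1740.1 CPM in LNCaP and at 679, 668 and 644 CPM in LNCaP-enzaR. The highest LNCaP-enzaR library held well under the lowest LNCaP library, and LDHA fell by 1.40 on the log2 scale, a 2.64-fold change (SE 0.052, edgeR adjusted p = 1.68e-11). Over all alternatives its log2 fold change was between −1.44 and −1.30. Compared with pyruvate kinase in the same library, 105 ± 3.55 LDHA counts per 100 PKM counts in LNCaP stood against 39.8 ± 3.76 in LNCaP-enzaR, a ratio that was likewise chosen after its values were seen. LDHB, the heart subunit, was at 13.3, 12.1 and 11.8 CPM against 7.46, 7.13 and 7.29 CPM and fell by 0.77 (SE 0.086, adjusted p = 1.99e-06), with 33.4% of its exonic bases shared with another gene. Per length, LDHA made up 98.6% ± 0.133 of lactate dehydrogenase transcripts in LNCaP and 97.8% ± 0.0610 in LNCaP-enzaR, so nearly all lactate dehydrogenase transcripts were those of LDHA in both lines.

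**Figure D2:**
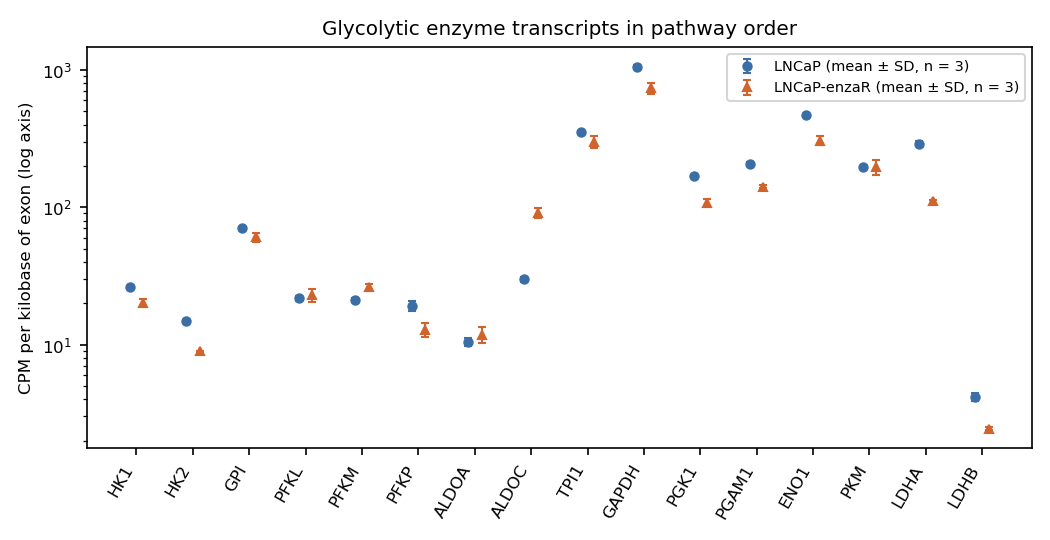
Transcript levels of the 16 enzymes from hexokinase to lactate dehydrogenase in pathway order, as CPM per kilobase of exon on a log axis; symbols are the mean and bars the SD of 3 libraries (circles LNCaP, triangles LNCaP-enzaR). GAPDH was the highest in both lines (1045 and 735), LDHA went from 291 to 110.1 and ALDOC from 29.9 to 90.6.

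Summed over the 16 enzymes from hexokinase to lactate dehydrogenase, transcripts made up 12394 ± 341 CPM in LNCaP and 9062 ± 759 CPM in LNCaP-enzaR, a ratio of 0.731 with no overlap between the lines (two-sided exact permutation test, p = 0.10, the smallest this design allows). The sum is carried by a few genes, since GAPDH, ENO1, LDHA and PKM were the 4 highest in CPM in LNCaP. Per kilobase of exon, the order in LNCaP was GAPDH (1045 ± 35.8), ENO1 (467 ± 13.1), TPI1 (351 ± 8.77), LDHA (291 ± 11.4), PGAM1 (208 ± 4.12), PKM (195 ± 5.58) and PGK1 (168 ± 4.42). In LNCaP-enzaR it was GAPDH (735 ± 73.4), ENO1 (305 ± 23.0), TPI1 (299 ± 30.4), PKM (196 ± 23.3), PGAM1 (141 ± 3.77), LDHA (110.1 ± 2.94) and PGK1 (107 ± 7.26). ENO1 and TPI1 in LNCaP-enzaR, as well as LDHA and PGK1 there, did not differ beyond their spread.

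Promoter sequences from RefSeq are given for LDHA, PGK1 and ALDOC. LDHA and PGK1 were picked as textbook HIF targets that fell. ALDOC was picked as the only glycolytic enzyme among the members to rise past the threshold. RefSeq windows of 250 bases before to 50 bases after a gene start (GRCh38.p14) were matched by symbol for 31 of the 35 members. A single window was used per gene, and its start need not be the one used in these cells. For PGK1 the window begins at 78103998, inside the gene's span of 77910739 to 78129295. The letters searched were ACGTG and GCGTG, the core that HIF binds, on both strands (CACGT and CACGC on the printed strand), which overlap with the E-box CACGTG. Below, the 250 bases before the start are printed 5′ to 3′ on the strand of the gene, with every match in capitals.
LDHA, chr11:18394313-18394562, plus strand: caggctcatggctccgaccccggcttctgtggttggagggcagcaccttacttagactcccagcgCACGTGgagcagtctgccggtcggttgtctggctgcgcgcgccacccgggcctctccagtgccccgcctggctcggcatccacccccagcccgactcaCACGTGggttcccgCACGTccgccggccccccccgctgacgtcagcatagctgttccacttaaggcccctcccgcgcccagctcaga
PGK1, chrX:78103998-78104247, plus strand: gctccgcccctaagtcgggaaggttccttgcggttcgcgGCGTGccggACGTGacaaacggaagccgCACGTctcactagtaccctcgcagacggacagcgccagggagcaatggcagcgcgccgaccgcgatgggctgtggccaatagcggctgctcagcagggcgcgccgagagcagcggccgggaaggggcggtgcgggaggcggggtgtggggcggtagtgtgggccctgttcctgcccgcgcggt
ALDOC, chr17:28576896-28577145, minus strand: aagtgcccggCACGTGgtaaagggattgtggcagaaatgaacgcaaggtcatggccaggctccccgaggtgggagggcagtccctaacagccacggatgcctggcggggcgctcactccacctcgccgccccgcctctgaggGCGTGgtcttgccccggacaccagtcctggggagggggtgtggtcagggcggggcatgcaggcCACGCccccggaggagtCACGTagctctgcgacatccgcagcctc
LDHA held 3 separate stretches, of which 2 were E-boxes, PGK1 held 3 without an E-box and ALDOC held 4 with 1 E-box. Among the full windows, 23 of 31 members (74.2%) had at least 1 match, compared with 48.4% of 27305 RefSeq windows of this length and 61.8% of 11255 windows of tested protein-coding genes. By call, 11 of 12 members that fell, both of the members that rose and had a window, and 9 of 16 that did not pass the threshold had a match. The member that fell without a match in its window was PDK1, which had the largest decrease of all and a window of 36.3% G and C. Other possible starts of PDK1 were not searched. The windows of the members were also richer in G and C, with a median of 70.0% against 58.3% in all windows and 65.0% in those of tested protein-coding genes, which bears on how often such letters occur. A match describes the sequence and is not a measured binding site, and no HIF binding was measured.

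Glucose enters through facilitative carriers and lactate leaves through monocarboxylate transporters. SLC2A1 (ENSG00000117394.24, chromosome 1, 42925353 to 42958893), which encodes the glucose transporter GLUT1, was at 73.5, 80.0 and 81.2 CPM in LNCaP and at 57.2, 49.0 and 45.7 CPM in LNCaP-enzaR. The groups did not overlap, and SLC2A1 fell by 0.63 on the log2 scale (SE 0.079, edgeR adjusted p = 6.85e-06), though it was short of the limit with upper-quartile scaling (−0.53) and without LNCaP-enzaR replicate 3 (−0.55). SLC16A1 (MCT1) was at 195 ± 2.48 and 213 ± 20.3 CPM with overlapping groups (log2 fold change 0.13, adjusted p = 0.0887). SLC16A3 (MCT4), the lactate exporter of glycolytic tissue, was low in both lines at 3.5003 ± 0.263 and 3.00 ± 0.322 CPM (−0.23, adjusted p = 0.147). SLC16A1 made up 98.8% ± 0.0786 and 99.0% ± 0.195 of the transcripts of these 2 transporters per length (exact permutation p = 0.30).

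Further carriers from a list of 16 went both ways, with 5 higher and 4 lower of 14 tested (35.7% and 28.6%, against 23.3% and 19.5% of all tested genes). SLC2A12, which encodes GLUT12 and shares 51.2% of its exonic bases with another gene, rose from 5.19 ± 0.251 to 33.5 ± 1.62 CPM (log2 fold change 2.69). SLC2A11, which encodes GLUT11 and shares 24.0% with other genes, rose from 7.63 ± 0.374 to 22.0 ± 0.885 CPM (1.53). Per kilobase of exon, SLC2A12 reached 6.02 ± 0.291 in LNCaP-enzaR and SLC2A1 there 7.66 ± 0.895, compared with 0.931 ± 0.0451 and 11.8 ± 0.622 in LNCaP. SLC2A3, the high-affinity transporter GLUT3, held 32 to 37 counts in each LNCaP library and none in LNCaP-enzaR, at least 11.9-fold lower when 3 counts per library are taken as the floor. SLC16A7 (MCT2), which takes up pyruvate and lactate with high affinity, fell from 8.58 ± 0.457 to 0.928 ± 0.168 CPM (−3.20). MPC2, a subunit of the mitochondrial pyruvate carrier, fell from 400.0 ± 3.99 to 108 ± 4.78 CPM (−1.88), with 21.8% of its exonic bases shared with another gene.

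At the entry into mitochondria, PDK1 (ENSG00000152256.14, chromosome 2, 172555373 to 172608669), a kinase that switches off pyruvate dehydrogenase and a known HIF target, had the largest decrease of all members. It was at 93.1, 98.5 and 86.7 CPM in LNCaP and at 25.1, 27.3 and 28.7 CPM in LNCaP-enzaR. All 3 LNCaP-enzaR libraries lay close together and far below LNCaP, and PDK1 fell by 1.78 on the log2 scale, a 3.43-fold change (SE 0.071, edgeR adjusted p = 3.09e-11) that was between −1.83 and −1.68 over all alternatives. PDK3 was at 64.0, 64.7 and 61.1 CPM against 38.5, 43.1 and 41.7 CPM and fell by 0.62 (SE 0.063, adjusted p = 7.12e-07), a change near the limit that was short of it with upper-quartile scaling (−0.52) and without LNCaP-enzaR replicate 1 (−0.57). PDHA1, the catalytic subunit that these kinases phosphorylate, was at 98.8 ± 1.43 and 94.3 ± 4.58 CPM with overlapping groups (−0.07, adjusted p = 0.315). Within libraries, 93.9 ± 4.89 PDK1 counts per 100 PDHA1 counts in LNCaP stood against 28.8 ± 3.19 in LNCaP-enzaR, a ratio chosen after its values were seen.

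The kinase isozymes changed their proportions. PDK1 made up 63.3% ± 0.827 of PDK1 and PDK3 transcripts per length in LNCaP and 43.6% ± 1.06 in LNCaP-enzaR (exact permutation p = 0.10, adjusted p = 0.109). When PDK2, which passed the filter as well, was included after the data were seen, PDK1 went from 45.0% ± 0.743 to 19.1% ± 1.94, PDK3 from 26.1% ± 0.501 to 24.7% ± 2.51 and PDK2 from 28.8% ± 0.259 to 56.2% ± 4.33. PDK2 itself was at 21.9 ± 0.847 and 29.4 ± 3.63 CPM (log2 fold change 0.43), short of 1.5-fold. Of its exonic bases, 38.6% lie in exons of another gene, which bears on these 3 shares. They also rest on exon lengths of 14.8 kb for PDK1, 17.5 kb for PDK3 and 5.47 kb for PDK2. Before division by length, PDK3 was the highest of the 3 in LNCaP-enzaR, at 41.1 ± 2.35 CPM. The larger share of PDK2 there thus depends on the lengths used. Of 9 tested genes of the pyruvate dehydrogenase complex and its regulators beyond the members, only DLAT passed the threshold (11.1%, against 42.7% of all tested genes). DLAT, the acetyltransferase core, fell from 201 ± 4.68 to 81.5 ± 3.68 CPM (−1.30).

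**Figure D3:**
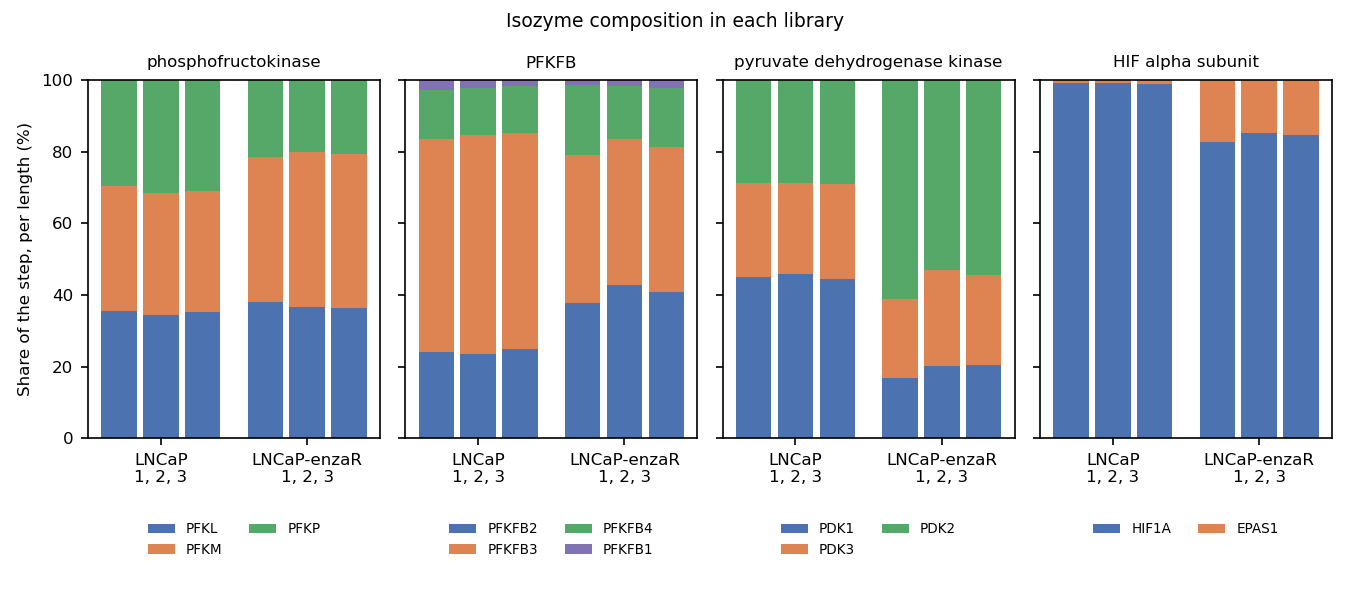
Share of each isozyme at 4 steps in each library, as percent of the counts per exon length of all listed isozymes that passed the filter; the 3 bars on the left of a panel are LNCaP replicates 1 to 3 and those on the right LNCaP-enzaR replicates 1 to 3. PFKP, PFKFB3, PDK1 and HIF1A took up less of their step in every LNCaP-enzaR library than in any LNCaP library.

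The HIF alpha subunits moved in opposite directions. HIF1A (ENSG00000100644.17, chromosome 14, 61695513 to 61748259) was at 174, 158 and 164 CPM in LNCaP and at 82.5, 95.9 and 89.5 CPM in LNCaP-enzaR. It fell by 0.89 on the log2 scale (SE 0.065, edgeR adjusted p = 2.19e-08) without overlap of the groups, with 11.3% of its exonic bases shared with antisense and other genes. EPAS1 (ENSG00000116016.14, chromosome 2, 46293667 to 46386697), which encodes HIF-2 alpha, was at 2.06, 2.09 and 2.79 CPM in LNCaP and at 24.4, 23.7 and 23.1 CPM in LNCaP-enzaR, from 190 to 219 and 2092 to 2292 counts per library. It rose 10.3-fold, the largest change of any member (log2 fold change 3.36, SE 0.110, adjusted p = 4.37e-12, 3.28 to 3.51 over all alternatives). Per length, HIF1A nonetheless remained the main alpha subunit transcript, with 99.0% ± 0.185 in LNCaP and 84.1% ± 1.27 in LNCaP-enzaR (exact permutation p = 0.10, adjusted p = 0.109). The levels per kilobase were 32.1 ± 1.60 CPM for HIF1A and 0.317 ± 0.0564 CPM for EPAS1 in LNCaP, and 17.3 ± 1.30 and 3.25 ± 0.0882 CPM in LNCaP-enzaR.

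Among the members that control the alpha subunits, neither passed the threshold. VHL, the recognition subunit of the ubiquitin ligase, was at 101 ± 3.58 and 80.9 ± 1.24 CPM (log2 fold change −0.32, adjusted p = 0.000142), and EGLN3, a prolyl hydroxylase, at 30.0 ± 0.695 and 40.6 ± 0.844 CPM (0.44, adjusted p = 1.93e-05). The groups were separate for both, but the changes were short of 1.5-fold. Of 14 further HIF pathway regulators tested, 5 rose and 2 fell (35.7% and 14.3%, against 23.3% and 19.5% of all tested genes). EGLN1, the main prolyl hydroxylase, rose from 14.3 ± 1.51 to 33.6 ± 2.63 CPM (1.23), although 55.8% of its exonic bases overlap with another gene. ARNT2, a partner subunit, rose from 12.6 ± 1.08 to 27.8 ± 0.339 CPM (1.14), and CITED2, which competes with HIF for its coactivator, from 97.2 ± 1.16 to 181 ± 2.54 CPM (0.90).

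Target genes of HIF did not share one direction. VEGFA (ENSG00000112715.25, chromosome 6, 43770184 to 43786487), the angiogenic growth factor, was at 40.5, 42.2 and 39.0 CPM in LNCaP and at 72.7, 72.9 and 68.0 CPM in LNCaP-enzaR and rose 1.75-fold (log2 fold change 0.81, SE 0.061, edgeR adjusted p = 2.82e-08). ANKRD37, an ankyrin repeat protein, was at 6.95, 6.93 and 6.26 CPM against 4.51, 2.98 and 3.45 CPM and fell by 0.88 (SE 0.139, adjusted p = 5.93e-05), with 40.3% of its exonic bases shared with another gene. ADM, the vasodilator peptide adrenomedullin, was near the limit of detection, with 42, 25 and 47 counts in LNCaP and 14, 14 and 16 in LNCaP-enzaR. It fell by 1.45 (SE 0.419, adjusted p = 0.00727), with a wide range of −1.70 to −1.18 over the alternatives. BNIP3, a mitophagy receptor, was lower in all 3 libraries at 275 ± 14.1 and 195 ± 1.42 CPM (−0.50, adjusted p = 1.4e-06) but short of 1.5-fold. P4HA1, a collagen prolyl hydroxylase, was at 68.4 ± 4.81 and 59.98 ± 5.10 CPM with overlapping groups (−0.19, adjusted p = 0.0356). CA9, the carbonic anhydrase that is often used to mark hypoxic tumor cells, held 3, 7 and 1 counts in LNCaP and 0, 0 and 3 in LNCaP-enzaR and was not tested, 3 counts corresponding to 0.0302 to 0.0382 CPM.

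Outside the members, 34 of 37 further HIF target genes were tested, with a median log2 fold change of −0.12. Of these, 5 rose and 9 fell (14.7% and 26.5%, against 23.3% and 19.5% of all tested genes). NDUFA4L2, a mitochondrial protein induced by HIF, fell from 19.4 ± 0.970 to 0.944 ± 0.0726 CPM (−4.35), and the transcription factor BHLHE40 from 27.9 ± 1.06 to 9.77 ± 0.718 CPM (−1.52). CA12, a membrane carbonic anhydrase, rose from 32.9 ± 0.203 to 83.5 ± 0.859 CPM (1.34). NDRG1, which is also androgen-regulated, rose (1.21), and the collagen-modifying genes PLOD2 (−2.17) and LOX (−4.08) fell, these 3 being named after their values were seen. LOX was low in both lines, at 3.29 ± 0.447 CPM in LNCaP and 0.194 ± 0.0220 CPM in LNCaP-enzaR. Thus members and further targets alike held genes of either direction.

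Of the isozymes and side steps of glycolysis that are not members, 6 were higher and 1 lower of 13 tested (46.2% and 7.69%, against 23.3% and 19.5% of all tested genes), with a median log2 fold change of 0.90. How they compare with the members was not tested. BPGM, which makes 2,3-bisphosphoglycerate at a side branch of the PGK1 step, rose from 22.4 ± 0.999 to 176 ± 5.16 CPM (2.97). LDHD, a mitochondrial dehydrogenase of D-lactate, rose from 22.5 ± 1.09 to 136 ± 17.1 CPM (2.60), and the neuronal enolase ENO2 from 34.4 ± 1.13 to 91.3 ± 7.25 CPM (1.41). Per kilobase, ENO2 reached 21.3 ± 1.69 CPM in LNCaP-enzaR, where ENO1 was at 305 ± 23.0, so ENO1 remained the main enolase. TIGAR (0.90), PGM1 (0.99) and PGM2 (0.95), which degrade fructose-2,6-bisphosphate or link glucose phosphate to glycogen and nucleoside sugars, also rose and were named after their values were seen.

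**Figure D4:**
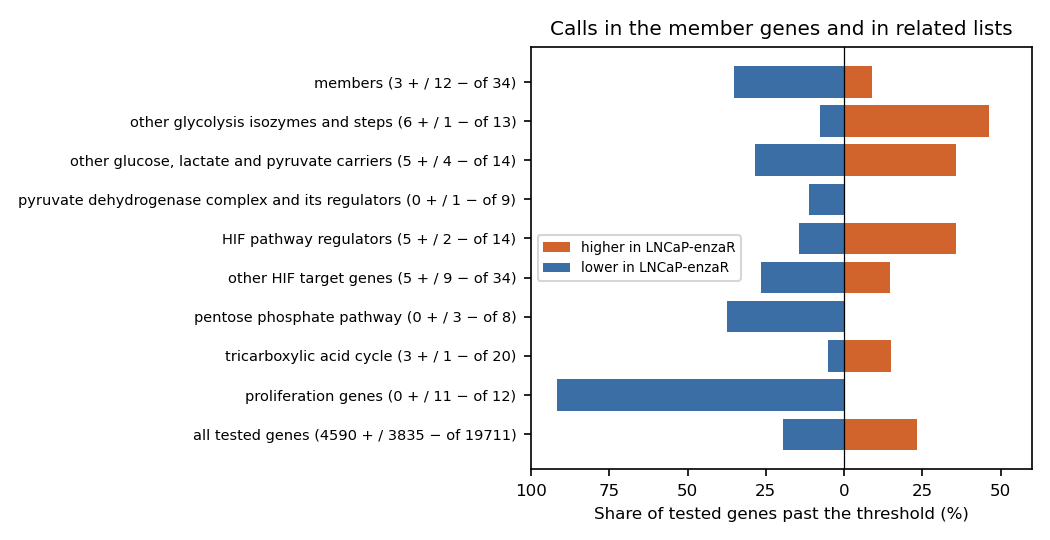
Share of tested genes past the threshold in the members, in 8 related lists and among all tested genes, with bars to the left for genes lower and to the right for genes higher in LNCaP-enzaR (percent); counts stand beside each name. The members show 12 lower and 3 higher of 34, the other glycolysis isozymes 1 lower and 6 higher of 13.

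The chromosomal surroundings of the members were compared with the members themselves. Over tested genes of at least 1 CPM that start within 5 Mb, the 46 neighbours of PDK1 had a median log2 fold change of −1.04, against −0.04 over all 13585 such genes of the genome. PDK1, at −1.78, thus lay in a region that was lower as a whole. The medians were −0.36 over 35 neighbours of LDHA, −0.56 over 57 of ADM, −0.44 over 22 of PDK3 and −0.32 over 40 of HIF1A, each of which was smaller in size than the change of the member. HK2 and PGK1 fell although their 58 and 21 neighbours had medians of 0.39 and 0.41. EPAS1 lay among 29 neighbours with a median of 0.41, and the medians around ALDOC (0.03) and VEGFA (−0.22) were near 0 or opposite in sign to the member. Copy number was not measured, and the part of the surrounding region in these changes was not tested.

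**Figure D5:**
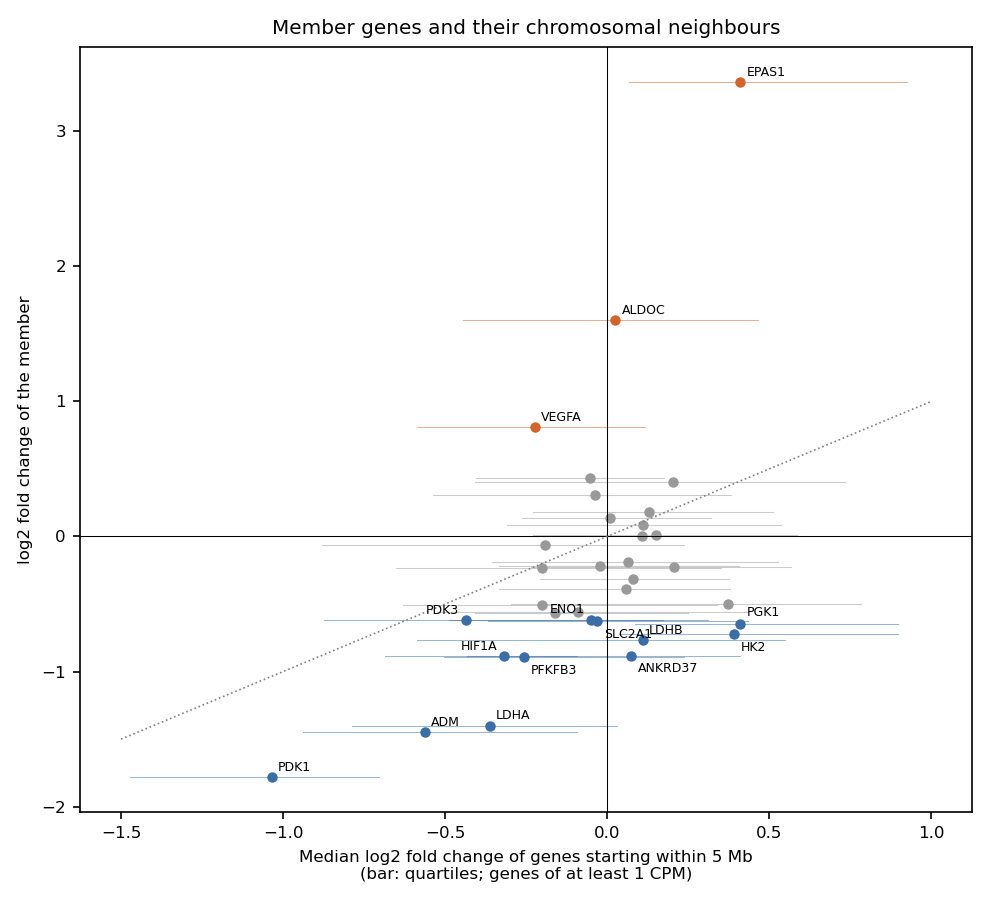
Log2 fold change of each tested member (vertical axis) against the median log2 fold change of tested genes of at least 1 CPM that start within 5 Mb (horizontal axis); bars span the quartiles of the neighbours, colors mark members past the threshold (blue lower, orange higher) and the dotted line marks equality. PDK1 lay at −1.04 and −1.78, EPAS1 at 0.41 and 3.36.

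Agreement between flasks was not the same in both lines. The median coefficient of variation over the tested members was 3.69% in LNCaP and 6.84% in LNCaP-enzaR, and 1.87% in LNCaP-enzaR without replicate 1. The last value comes from 2 libraries and is not comparable with those from 3. LNCaP-enzaR replicate 1 was the highest of its line in 24 of 34 members, among them GAPDH, ENO1, PGK1, TPI1 and PKM, and its sum over all 35 members was 11015 CPM against 9729 and 9735 CPM in the other 2 flasks. The sum over the members was 13734 ± 348 CPM in LNCaP and 10159.8 ± 741 CPM in LNCaP-enzaR (ratio 0.740, two-sided exact permutation test, p = 0.10), and each LNCaP-enzaR library was below each LNCaP library. Without that replicate, 12 members fell and 3 rose, the same numbers as with it. The genes were not all the same, since PFKP gained a call and PDK3 lost its own.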

How the data were processed

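Raw counts per gene of 3 LNCaP and 3 LNCaP-enzaR libraries were analysed. Per the study's methods and the submitters' processing notes, the authors trimmed adapters with Cutadapt, aligned paired-end reads to GRCh38.p13 with STAR and GENCODE v38 and obtained gene counts from featureCounts. The deposited counts are not normalized. Strand setting, handling of multi-mapping reads and the unit counted (reads or fragments) are not given in the sources used here, so genes that overlap others or have near-identical copies are uncertain. More than 10% of the exonic bases lie in exons of another gene for 9 members (ALDOA, ALDOC, ANKRD37, CA9, GAPDH, HIF1A, LDHB, PDHA1 and VHL), and processed copies present in the table held at most 0.947% of a member's counts.

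Counts were scaled by TMM and tested with edgeR 4.0.16 in R 4.3.3 (filterByExpr, robust quasi-likelihood F-test, Benjamini-Hochberg adjustment over 19711 genes). The limits, an adjusted p of 0.05 and 1.5-fold, are those of the study's methods. Floors of 3 counts cover counting error only, whereas each SE comes from the quasi-likelihood fit and includes the spread between flasks. Levels per kilobase use exon unions of GENCODE v44, the same build. An exon union pools all annotated transcripts of a gene, so shares and rankings between genes depend on this choice of length. Isozyme shares and sums were compared by two-sided exact permutation tests, which cannot go below 0.10 here. The alternatives were DESeq2 1.42.0, other scalings, filters, gene sets and fold limits, added pseudogene counts, other lengths for the shares, the replicate number as a block and leaving out each library. The members and lists were chosen with earlier results of these data known. Every member is given, and from each list the 3 genes with the smallest p past the threshold and at least 5 CPM on average, as well as further isozymes of a member step. Simulated counts were run on 19187 genes and judged by an adjusted p of at most 0.05 alone, without the fold limit. On that basis, 87.1% of 62 genes changed 1.5-fold, 98.7% of 75 changed 2-fold and 63 of 63 changed 4-fold were recovered. The same basis called 16 unchanged genes. The changed genes were all above 1 CPM and far fewer than those called in the data. These rates therefore do not describe the full threshold.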

Additional observations from a re-analysis of the deposited data

How the results depend on the processing

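Across 16 refits of the whole table (DESeq2, scalings, filters, gene sets, the replicate block, added pseudogene counts and leaving out each library), 24 of 34 tested members kept direction and side of the threshold in every one, among them LDHA, PDK1, ALDOC, EPAS1, HIF1A, VEGFA, HK2 and PFKFB3. The other 10 lay near 1.5-fold or near 0. PGK1, ENO1, SLC2A1 and PDK3 lost their call and PFKP and PGAM1 gained one, with the values given beside each gene. The sign reversed for the PFKFB4 log2 fold change with library totals (−0.030) and with the replicate block (−0.0050), the PKM log2 fold change with library totals (−0.0264) and the PDHA1 log2 fold change with upper-quartile scaling (0.0341). When libraries were left out one at a time, the range was −0.118 to 0.112 for PFKFB4, −0.0852 to 0.0648 for PKM and, as PFKL log2 fold change, −0.0032 to 0.138. The median of the members, −0.35, was −0.39 with library totals, −0.25 with upper-quartile scaling and −0.39 with no filter. Upper-quartile scaling moved the share of higher among all calls from 54.5% to 60.9%. With no minimum fold, 13074 of all 19711 tested genes passed, and of the 34 members 6 were higher and 21 lower. With a fold of at least 2, 5561 of all 19711 tested genes passed, and of the 34 members 2 were higher and 3 lower. Leaving out each library gave 11 to 13 lower and 3 higher members. Of 26 named genes from the lists, 24 kept their call in every refit, whereas TKT and TALDO1 lost it in some. Replicate numbers did not pair libraries: between those with the same number, the correlation of deviations from the line's mean was −0.211, 0.0085 and −0.116. With the replicate block, genes past the threshold numbered 8212, and the 15 members called were the same 15, as they were with DESeq2, which gave 8321 genes. The causes of these differences were not tested. No library held more than 47 counts of ADM or 7 of CA9, and statements on both are limited accordingly.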

Other observations

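Of 8 pentose phosphate genes tested, 3 fell (37.5%) and none rose, against 19.5% and 23.3% of all tested genes. RPE, the ribulose phosphate epimerase, fell from 45.5 ± 2.28 to 25.8 ± 1.26 CPM (mean ± SD of 3 libraries, −0.82 on the log2 scale), and the transaldolase TALDO1 from 249 ± 5.03 to 159 ± 7.63 CPM (−0.65). The transketolase TKT went from 585 ± 12.0 to 389 ± 29.8 CPM (−0.59), which was past the limit here and short of it in 9 of the refits. Of 20 genes around the tricarboxylic acid cycle, 3 rose and 1 fell (15.0% and 5.0%, against 23.3% and 19.5% of all tested genes). Their median log2 fold change was 0.08. MDH1, the cytosolic malate dehydrogenase, rose from 122 ± 1.12 to 236 ± 1.74 CPM (0.95) and IDH2, a mitochondrial isocitrate dehydrogenase, from 234 ± 9.29 to 427 ± 36.8 CPM (0.87). SDHD, a subunit of succinate dehydrogenase, fell from 79.1 ± 4.66 to 40.7 ± 5.67 CPM (−0.96). The proliferation genes with the smallest p-values, MKI67 (−2.45), CCNA2 (−2.35) and BIRC5 (−1.98), fell by more than any member.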
